A study of Mus musculus with 32 samples.

Results

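The 10 immediate early transcription factor genes Fos, Fosb, Fosl2, Jun, Junb, Jund, Egr1, Atf3, Ier2 and Nr4a1 were followed in ribosome footprints of neural stem cells (NSCs) exposed to interferon-β (IFN-β). Members were taken by symbol and matched to Ensembl gene IDs, and all 10 of 10 had an entry among the 23035 genes of the footprint tables. The rule used names, not measured values. The members and the lists of related genes were nonetheless chosen with earlier results of these data known. Their counts beside the shares of all genes are therefore descriptive. NSCs came from the ventricular-subventricular zone (vSVZ) of C57BL/6 mice of 8 to 12 weeks and were grown in culture with the growth factors EGF and bFGF. Treatment began 48 h after cells were seeded and was vehicle (BSA in PBS) or IFN-β, for 2 h or 14 h, and each of these 4 groups held 4 cultures with 1 footprint and 1 total RNA library per culture. All groups, vehicle included, were given the elongation blocker cycloheximide at 0.1 mg/ml for 5 min before harvest. The study's methods take replicates as different mice or as cultures from different mice. Cultured NSCs lack the neighbouring cells of the vSVZ and are held in mitogens, so levels here are those of growing cultures.

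Immediate early genes are switched on within minutes of a stimulus from promoters that are already poised, without the need for new protein synthesis. Their mRNAs and proteins turn over fast, so a change at one time point need not be present at another. Fos and Jun proteins pair through leucine zippers to form AP-1, which binds DNA at TGAGTCA. In growth factor cultures the ERK pathway acts through serum response factor and its Elk partners on CArG boxes, and through CREB and its relatives on cyclic AMP response elements (CREs). Type I interferons act on their target genes through interferon-stimulated response elements (ISREs), and GAS elements are a further class of interferon-responsive sites. A Ribo-Seq footprint is the piece of mRNA protected by a ribosome, so footprint counts in a coding sequence reflect mRNA amount and ribosome load together.

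Stretches upstream of the start sites are shown to give the matches found there to elements of these pathways. RefSeq windows (GRCm38.p6, 250 bases upstream of 1 start site per gene) were on hand for 8 of the 10 members, all but Egr1 and Ier2. Both strands were searched, and capitals mark the match. The CRE core TGACG was found in 5 of 8 members and in 17.8% of all 32851 windows of that length. For this element 1 match per gene is shown. Fos had another at 129 to 125 bases upstream, and Nr4a1 had others at 233 to 229, 213 to 209 and 40 to 36 bases upstream.
Fos, chr12:85473814-85473838, plus strand, 76 to 52 bases upstream: ttccgcccagTGACGtaggaagtcc
Fosb, chr7:19310091-19310115, minus strand, 70 to 46 bases upstream: gagttgcgggTGACGcaagcgcggg
Junb, chr8:84978840-84978864, minus strand, 116 to 92 bases upstream: ttcctgacagTGACGcgagccgcct
Atf3, chr1:191183334-191183350, minus strand, 17 to 1 bases upstream: aatagcattaCGTCAgc
Nr4a1, chr15:101266767-101266791, plus strand, 79 to 55 bases upstream: gggccgtgtgCGTCAgtggcgcccc

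The looser CRE-like form TGACNTCA, which also takes in the full CRE, was found in Jun and in 7.49% of all windows. GCGGGGGCG, a site read by zinc fingers of the Egr family, was found in Fosb, Fosl2 and Nr4a1 and in 2.57% of all windows. TTTCNNTTTC, an ISRE-type repeat, was found in Fosl2 and in 2.98% of all windows.
Jun, chr4:95052250-95052277, minus strand, 55 to 28 bases upstream: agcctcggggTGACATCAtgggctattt
Fosb, chr7:19310077-19310105, minus strand, 60 to 32 bases upstream: tgacgcaagcGCGGGGGCGggtcccggag
Fosl2, chr5:32136383-32136411, plus strand, 89 to 61 bases upstream: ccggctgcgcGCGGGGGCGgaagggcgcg
Nr4a1, chr15:101266776-101266804, plus strand, 70 to 42 bases upstream: gcgtcagtggCGCCCCCGCccctctccat
Fosl2, chr5:32136241-32136270, plus strand, 231 to 202 bases upstream: accggcagctTTTCTTTTTCgcctttttgg

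The full CRE TGACGTCA (1.55% of all windows), the AP-1 site TGAGTCA (4.46%), the CArG box (1.47%) and the GAS element TTCNNNGAA (7.02%) had no match in the 8 windows. The Jund window, chr8:70697489-70697738, also had none of the other elements, but it ends more than 1 kb before the start of Jund in GENCODE M21 (70698949) and so does not cover the sequence next to that start. These are matches of letters in 1 short window per gene, and GENCODE M21 holds further transcripts of Fosl2, Atf3 and Nr4a1 that start upstream of the windows shown.

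By exact matches of 30 bases the coding sequences could be told apart from one another, while shorter stretches and stretches with mismatches were not searched. No stretch of 30 bases in the coding sequence of any member occurred on the same strand in a transcript of another gene. Jund was the exception on the opposite strand, where 822 of its 997 such stretches, 82.4%, lie in exons of Gm11175. The strand setting of the authors' counting was not given in the sources used here, so Jund values may hold reads of Gm11175. Exons of Jun and Junb meet opposite-strand exons of Junos (232 bp) and Prdx2 (173 bp), with no overlap in coding sequence.

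Footprint libraries held 2956297 to 10505108 counts. NSC markers such as Sox2, Nes and Vim summed to at least 11123 CPM (counts scaled to a common library size) in every library, although Gfap stayed under 10 counts in every 14 h library and ranged from 0.689 to 468 CPM at 2 h. Olig2 was at 611 to 817 CPM with vehicle and 325 to 393 CPM with IFN-β at 2 h. Of 7 microglial markers Aif1, Cx3cr1 and C1qa had 0 counts in all 16 libraries, and the list summed at 2 h to 11.8 to 34.6 CPM with vehicle and to 15.7 CPM or more with IFN-β, and at 14 h to 36.7 to 41.3 CPM with vehicle and 40.2 to 45.4 CPM with IFN-β. Itgam and P2ry12 made up most of it and went opposite ways at 14 h. P2ry12 was at 5.53 to 8.26 CPM with vehicle and 20.5 to 26.1 CPM with IFN-β. Itgam was at 29.3 to 35.4 CPM with vehicle and 17.0 to 20.8 CPM with IFN-β. The endothelial list summed to at most 24.3 CPM. Oligodendrocyte markers summed to 95.7 to 126 CPM with vehicle and 218 to 296 CPM with IFN-β at 14 h, most of it Cnp, while Mog, Mbp, Mag and Mobp were under 10 counts in every 14 h library. Neuronal markers at 14 h summed to 1088 to 1199 CPM with vehicle and 1426 to 1641 CPM with IFN-β, most of it Map2. The ependymal list at 14 h summed to 17.1 to 24.0 CPM with vehicle and 42.7 to 56.7 CPM with IFN-β, most of it Foxj1, with Tmem212 and Pifo at 0 in both groups. The part of these cells in the results below was not tested, and in such bulk samples fewer cells of a type and less RNA per cell cannot be told apart. At 2 h the vehicle and IFN-β libraries numbered 3 stood apart from the others, and 2 h results are given with and without this pair where it matters.

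Levels between genes were compared per kilobase of coding sequence. In vehicle cultures at 2 h, Jun (217 ± 17.0 CPM per kb; SD, n = 4), Jund (209 ± 35) and Egr1 (197 ± 34.3) led, and their ranges overlapped. Ier2 (49.0 ± 6.36) and Fos (42.8 ± 28.0) followed and overlapped each other. Junb (14.1 ± 2.76), Fosl2 (12.6 ± 3.82), Nr4a1 (6.22 ± 3.23) and Atf3 (5.04 ± 2.12) formed a run in which each overlapped the next. Fosb was last with 0.800 ± 0.847 CPM per kb.

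At 14 h the vehicle order was Egr1 (191 ± 6.35 CPM per kb; SD, n = 4), Jun (150 ± 12.9), Jund (123 ± 8.34) and Ier2 (53.7 ± 2.13), with no overlap between neighbours. Junb (12.2 ± 1.28), Fos (12.0 ± 0.675), Fosl2 (9.03 ± 2.06) and Nr4a1 (6.25 ± 1.75) each overlapped the next, and Atf3 (3.08 ± 0.159) and Fosb (0.300 ± 0.139) lay below. As a ratio, vehicle Fos was the level that differed most between the time points among the 9 tested members, with 25.1 to 95.1 CPM at 2 h and 12.5 to 14.2 CPM at 14 h. Time in culture and the making of the tables cannot be told apart there, so vehicle levels were not tested between times.

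**Figure D1:**
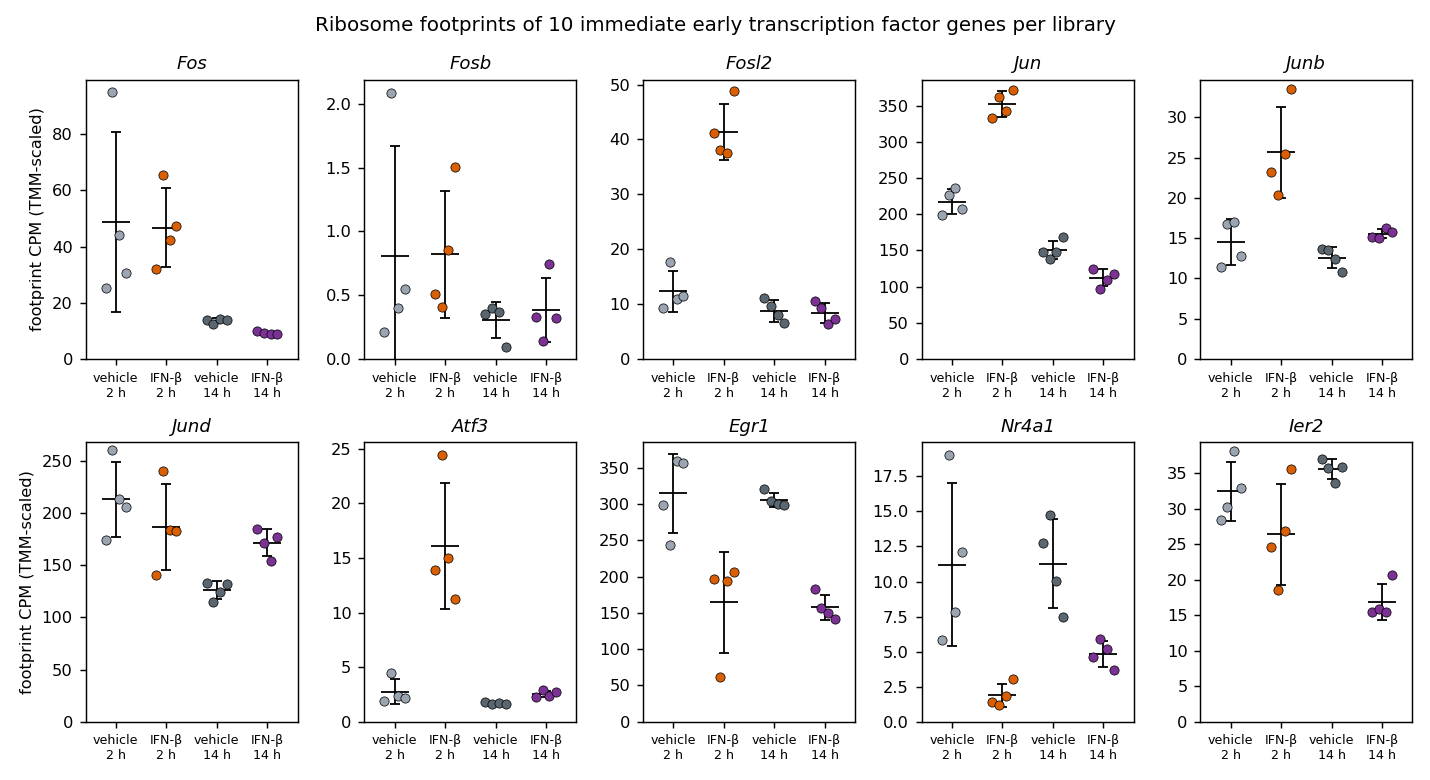
Footprint CPM (linear axes, TMM-scaled) of the 10 members in each of 16 libraries. Points are libraries, horizontal bars are group means and error bars are 1 SD over 4 libraries (cut at 0 for Fosb with vehicle at 2 h). The 4 IFN-β libraries of Fosl2, Jun, Junb and Atf3 lie above the 4 vehicle libraries at 2 h, and those of Egr1 and Nr4a1 lie below them at both times.

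Within 2 h of IFN-β, footprints of Fosl2, Jun, Junb and Atf3 rose and those of Nr4a1 fell, as tested with edgeR's quasi-likelihood test over all 12104 genes with enough counts (two-sided, Benjamini-Hochberg adjustment, call at an adjusted p under 0.05). Fosb stayed at 2 to 15 counts per library and was not tested, so the counts are out of 9 members. Of these 9, 4 were called higher, where 5.25% of all genes tested were, and 1 was called lower, where 2.01% were. The replicate numbers were taken to pair the cultures, from correlations in these same data. With the number as a block 4 members were called higher and 4 lower (Jund, Egr1, Ier2 and Nr4a1), where 15.9% and 13.4% of all genes were. The IFN-β and vehicle ranges did not overlap for 6 of the 10 members, and for 12.8% of all genes tested. Without the pair of libraries numbered 3, 6 members were called, Egr1 being the one added, beside 1671 of the 11892 genes tested.

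At 14 h footprints of Junb, Jund and Atf3 were higher with IFN-β and those of Fos, Jun, Egr1, Ier2 and Nr4a1 lower. TMM-scaled counts set a gene against the bulk of genes in its library and do not give the number of ribosomes on it. The study reports a mild early rise in heavy polysomes and protein synthesis and a strong fall after long exposure to IFN-β. Higher and lower, here and at 2 h, are therefore relative to the bulk of genes, and absolute output was not measured. That is 3 of 9 members called higher, where 26.2% of the 12113 genes tested were, and 5 called lower, where 26.3% were. The block gave the same 8 members in the same directions, against 31.8% and 31.0% of all genes. The groups did not overlap for 8 of 10 members, beside 46.0% of all genes tested, so many genes outside the 10 moved at this time too.

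Response at 14 h was also set against that at 2 h directly by an interaction term in 1 edgeR model of all 16 footprint libraries. The response was lower at 14 h for Fosl2, Jun, Atf3 and Ier2 (4 of 9, beside 15.5% of the 12508 genes tested) and higher for Jund (1 of 9, beside 15.4%). With the block, Fos and Junb joined the lower and Nr4a1 the higher ones, which made 6 lower and 2 higher, beside 27.5% and 28.0% of all genes. Without the 2 h libraries numbered 3 it was 7 members, beside 5196 of the 12428 genes tested. Fos and Junb were added and Nr4a1 was not called.

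**Figure D2:**
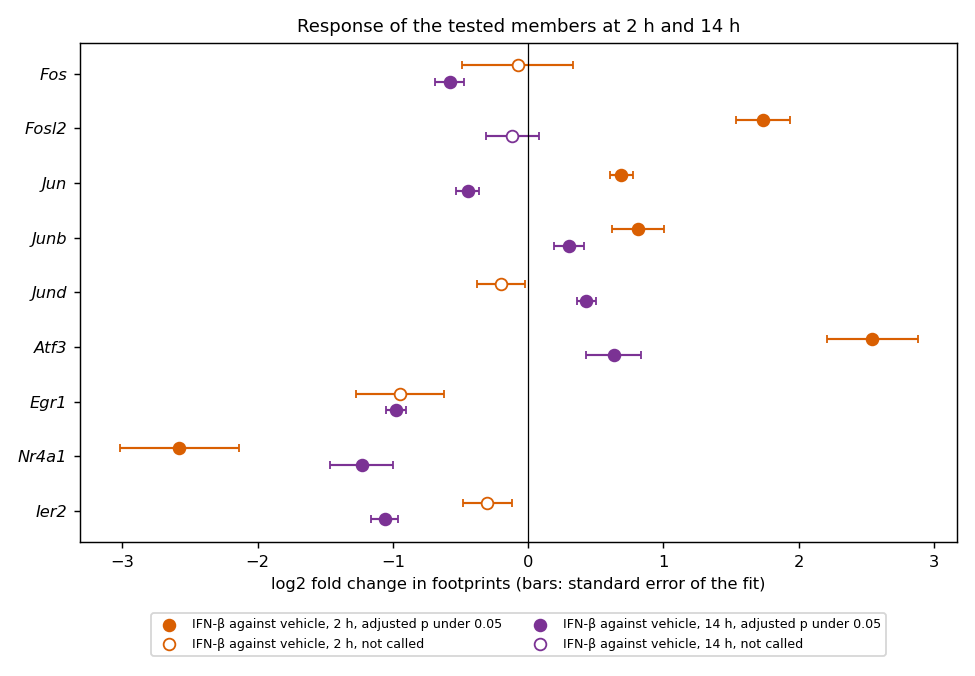
Log2 fold change in footprints, IFN-β over vehicle (x axis), of the 9 tested members at 2 h and at 14 h, with the standard error of the edgeR fit. Filled points passed the adjusted p of 0.05. Fosl2, Jun and Atf3 lie further right at 2 h than at 14 h, and Jun changes side, from 0.69 to -0.45.

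Fos is the founding partner of AP-1 and the gene most often used to mark a recent stimulus. At 2 h its footprints were 25.1, 95.1, 44.2 and 30.7 CPM with vehicle (replicates 2, 3, 5 and 6) and 32.1, 65.6, 42.3 and 47.3 CPM with IFN-β. The groups overlapped, and the vehicle library numbered 3 was more than 2 times as high as any other vehicle library. The log2 fold change was -0.08 (95% interval -0.88 to 0.73, adjusted p = 0.968 in edgeR), which leaves room for sizeable changes in either direction. Without the libraries numbered 3 it was 0.27 (adjusted p = 0.436 in edgeR), and with the block as well 0.27 (adjusted p = 0.0218 in edgeR). The sign of the Fos change at 2 h was therefore not settled by these libraries.

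At 14 h Fos footprints were 14.0, 12.5, 14.2 and 13.9 CPM with vehicle (replicates 1 to 4) and 9.83, 9.31, 9.07 and 8.97 CPM with IFN-β. Every IFN-β library lay below every vehicle library, by 1.49-fold in the fit (log2 fold change -0.58, standard error 0.11, adjusted p = 0.000563 in edgeR). The difference between the responses at 14 h and 2 h was -0.49 (adjusted p = 0.473 in edgeR, and 0.0167 with the block). Without vehicle replicate 3 at 2 h it was -1.04 (adjusted p = 0.015 in edgeR), and without the pair numbered 3 it was -0.84 (adjusted p = 0.00983 in edgeR).

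Fosl2 encodes Fra-2, a Fos relative that pairs with Jun proteins but lacks the strong activation domain of Fos. It had 9.26, 17.8, 10.9 and 11.4 CPM with vehicle at 2 h (replicates 2, 3, 5 and 6) and 41.1, 38.1, 37.6 and 48.8 CPM with IFN-β. The groups were far apart, with a rise of 3.34-fold (log2 fold change 1.74, standard error 0.20, adjusted p = 0.00059 in edgeR) that was called under all 16 alternatives tried. Within pairs of the same number the log2 difference was 1.08 for number 3 and 1.74 to 2.09 for the other pairs.

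At 14 h Fosl2 was at 6.53 to 11.2 CPM with vehicle and 6.39 to 10.5 CPM with IFN-β, fully overlapping (log2 fold change -0.12, 95% interval -0.50 to 0.27, adjusted p = 0.643 in edgeR). The response at 14 h was thus smaller than at 2 h by 1.84 on the log2 scale (14 h minus 2 h: -1.84, standard error 0.30, adjusted p = 0.000246 in edgeR). Its Fos family relative Fosb never exceeded 15 counts in a library, and reached 2.08 CPM in the vehicle library numbered 3 at 2 h and at most 0.743 CPM at 14 h.

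Jun is the AP-1 subunit that can pair with itself or with any Fos protein and is activated by the kinase JNK. It was among the members with most footprints. Vehicle libraries at 2 h gave 200, 226, 237 and 207 CPM (replicates 2, 3, 5 and 6) and IFN-β libraries 334, 362, 343 and 372 CPM. The groups did not overlap, and the rise was 1.61-fold (log2 fold change 0.69, standard error 0.08, adjusted p = 0.000913 in edgeR).

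Jun turned to the other side at 14 h. It had 147, 138, 148 and 169 CPM with vehicle (replicates 1 to 4) and 125, 97.4, 109 and 117 CPM with IFN-β, again without overlap. The fall was 1.36-fold (log2 fold change -0.45, standard error 0.08, adjusted p = 0.000601 in edgeR). Both calls held under every alternative tried, and the responses differed by -1.12 (14 h minus 2 h, standard error 0.12, adjusted p = 6.62e-06 in edgeR).

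Junb pairs with Fos proteins and can oppose Jun at some promoters. At 2 h it had 11.4, 16.8, 17.0 and 12.8 CPM with vehicle (replicates 2, 3, 5 and 6) and 23.2, 20.4, 25.5 and 33.5 CPM with IFN-β. Groups did not overlap, with a rise of 1.76-fold (log2 fold change 0.81, standard error 0.19, adjusted p = 0.0317 in edgeR). Leaving out any 1 library numbered 2, 5 or 6, from either group, ended the call (adjusted p of 0.0512 to 0.11 in edgeR), while the block gave an adjusted p of 9.25e-06 in edgeR.

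At 14 h Junb had 13.6, 13.5, 12.4 and 10.8 CPM with vehicle (replicates 1 to 4) and 15.1, 15.0, 16.2 and 15.8 CPM with IFN-β. The groups were close but did not overlap, and the rise was 1.23-fold (log2 fold change 0.30, standard error 0.11, adjusted p = 0.0325 in edgeR). That call was lost with DESeq2 (adjusted p = 0.0742), without the filter on low counts (0.0616 in edgeR), and when any 1 library numbered 3 or 4 was dropped (0.0579 to 0.0855 in edgeR). The responses of Junb at the 2 times differed by -0.51 (adjusted p = 0.0896 in edgeR, and 0.0241 with the block). Without IFN-β replicate 3 at 2 h the difference was -0.59 (adjusted p = 0.0377 in edgeR), and without the pair numbered 3 it was -0.67 (adjusted p = 0.0154 in edgeR).

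Jund is the Jun family member that most cells hold at a steady level and that restrains growth in several cell types. Its footprints at 2 h were 174, 261, 213 and 206 CPM with vehicle (replicates 2, 3, 5 and 6) and 140, 240, 184 and 183 CPM with IFN-β. The groups overlapped, with or without the libraries numbered 3, which were the highest of each group, and IFN-β was lower in 4 of 4 pairs. The log2 fold change was -0.20 (adjusted p = 0.685 in edgeR), and -0.21 with the block, where edgeR's adjusted p was 0.00102 (standard error 0.05).

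At 14 h Jund was at 133, 115, 125 and 132 CPM with vehicle (replicates 1 to 4) and 185, 172, 154 and 177 CPM with IFN-β. IFN-β libraries lay above vehicle without overlap (1.35-fold, log2 fold change 0.43, standard error 0.07, adjusted p = 0.000249 in edgeR). The responses differed by 0.65 (14 h minus 2 h, standard error 0.20, adjusted p = 0.0223 in edgeR). Among the Jun genes Jund and Junb were thus higher and Jun lower at 14 h, and each Jund value carries the limit on Gm11175 given above.

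Atf3 is a bZIP factor of the ATF/CREB family that is induced by many stresses and cytokines and can dimerise with Jun proteins. It was low with vehicle at 2 h, at 1.91, 4.44, 2.39 and 2.20 CPM (replicates 2, 3, 5 and 6; 16 to 32 counts), and stood at 13.9, 24.4, 15.0 and 11.2 CPM with IFN-β (67 to 120 counts). This was the largest rise among the members tested, 5.84-fold (log2 fold change 2.55, standard error 0.33, adjusted p = 0.00132 in edgeR). The difference within pairs ran from 2.12 to 2.57.

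At 14 h Atf3 had 1.77, 1.59, 1.72 and 1.61 CPM with vehicle (replicates 1 to 4) and 2.29, 2.86, 2.38 and 2.70 CPM with IFN-β, from 7 to 25 counts per library. The groups did not overlap (1.55-fold, log2 fold change 0.63, standard error 0.21, adjusted p = 0.0271 in edgeR). With counts this low the call was lost in DESeq2 (adjusted p = 0.122), without the filter (0.0614 in edgeR), and when any 1 library numbered 2 or 4 was dropped (0.0528 to 0.0698 in edgeR). The response was smaller at 14 h than at 2 h by 1.91 on the log2 scale (14 h minus 2 h: -1.91, standard error 0.42, adjusted p = 0.00282 in edgeR).

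**Figure D3:**
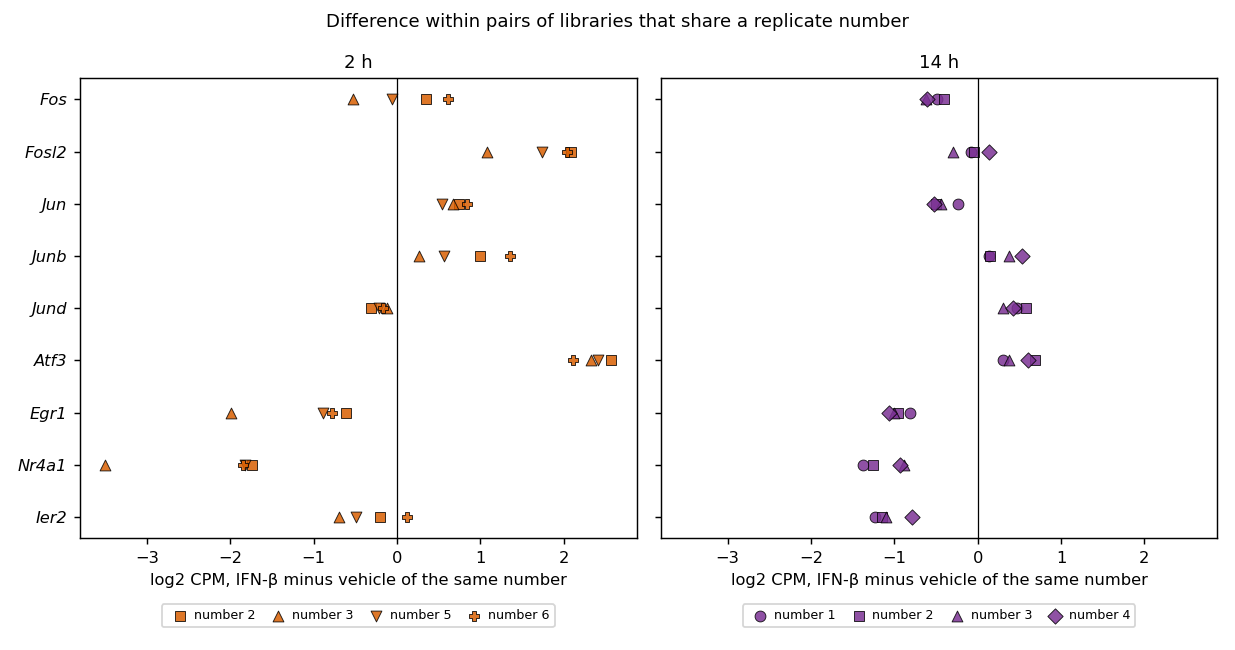
Log2 difference in footprint CPM (pseudocount 0.5 CPM) between the IFN-β and the vehicle library that share a replicate number, for each tested member at 2 h (left) and 14 h (right), on the same x axis. The pair numbered 3 at 2 h has the lowest value for Fos, Fosl2, Junb, Egr1, Nr4a1 and Ier2, with -3.50 for Nr4a1 and -1.99 for Egr1.

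Egr1 is a zinc finger factor induced through ERK and serum response factor by EGF and FGF, and vehicle cultures held much of it. At 2 h it had 299, 244, 360 and 356 CPM with vehicle (replicates 2, 3, 5 and 6) and 196, 61.1, 194 and 207 CPM with IFN-β. All IFN-β libraries lay below all vehicle libraries, and the library numbered 3 was far below the other IFN-β libraries. With a log2 fold change of -0.95 (standard error 0.33), Egr1 missed the threshold (adjusted p = 0.149 in edgeR, and 0.0456 in DESeq2). It passed with the block at nearly the same size (adjusted p = 2.52e-08 in edgeR), and was -0.78 without the pair numbered 3 (adjusted p = 3.8e-05 in edgeR) and -0.67 without IFN-β replicate 3 alone (adjusted p = 0.0172 in edgeR).

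At 14 h Egr1 had 320, 304, 300 and 298 CPM with vehicle (replicates 1 to 4) and 182, 157, 149 and 142 CPM with IFN-β. The fall was 1.97-fold (log2 fold change -0.98, standard error 0.07, adjusted p = 1.91e-07 in edgeR), the smallest adjusted p of any member. The responses at 14 h and 2 h differed by -0.02 with a 95% interval of -0.70 to 0.67 (adjusted p = 0.983 in edgeR), an interval wide enough to hold a sizeable difference either way.

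Nr4a1 (Nur77) is an orphan nuclear receptor induced by growth factors and calcium. Vehicle libraries at 2 h held 5.85, 19.0, 7.85 and 12.1 CPM (replicates 2, 3, 5 and 6; 55 to 137 counts), and IFN-β libraries 1.40, 1.22, 1.85 and 3.02 CPM (6 to 18 counts). Groups did not overlap, and the fall of 5.98-fold was the largest among the members (log2 fold change -2.58, standard error 0.44, adjusted p = 0.00598 in edgeR). Without the pair numbered 3 it was -2.07 (adjusted p = 0.00141 in edgeR).

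At 14 h Nr4a1 had 12.8, 14.7, 10.1 and 7.48 CPM with vehicle (replicates 1 to 4) and 4.59, 5.87, 5.20 and 3.67 CPM with IFN-β, a fall of 2.35-fold (log2 fold change -1.23, standard error 0.23, adjusted p = 0.000698 in edgeR). It was lower in 4 of 4 pairs at both times. The responses differed by 1.35 (14 h minus 2 h, standard error 0.53, adjusted p = 0.0627 in edgeR, 0.000585 with the block and 0.152 in edgeR without the pair numbered 3). It passed in DESeq2 (adjusted p = 0.0329) and, in edgeR, when IFN-β replicate 6 at 2 h, vehicle replicate 2 or 5 at 2 h, or vehicle replicate 2 at 14 h was dropped (adjusted p of 0.0201 to 0.0495).

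Ier2 encodes a small nuclear protein of the immediate early class. It had 28.5, 30.3, 38.2 and 32.9 CPM with vehicle at 2 h (replicates 2, 3, 5 and 6) and 24.7, 18.5, 26.9 and 35.7 CPM with IFN-β. The groups overlapped, with IFN-β lower in 3 of 4 pairs (log2 fold change -0.30, 95% interval -0.66 to 0.05, adjusted p = 0.487 in edgeR, and 0.0225 with the block). With the block and without the pair numbered 3 the adjusted p was 0.107 in edgeR.

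At 14 h Ier2 had 37.0, 35.7, 33.7 and 35.9 CPM with vehicle (replicates 1 to 4) and 15.4, 15.9, 15.5 and 20.6 CPM with IFN-β. The groups were well apart, with a fall of 2.09-fold (log2 fold change -1.06, standard error 0.10, adjusted p = 1.55e-06 in edgeR). The response was lower at 14 h than at 2 h by 0.76 on the log2 scale (14 h minus 2 h: -0.76, standard error 0.21, adjusted p = 0.0137 in edgeR).

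Genes whose footprints ran most like those of Fos, Jun and Egr1 were sought among 10306 others with mean counts of 50 or more. Likeness was the root mean square difference in log2 CPM over 16 libraries, each gene being centred on its vehicle mean at the same time. Nearest to Jun were Mex3a (0.14), Soga3 (0.16) and Cltb (0.17), with 2 h log2 fold changes of 0.55, 0.54 and 0.44 and 14 h ones of -0.34, -0.39 and -0.41. Nearest to Fos were Mapt (0.21), Plekhb1 (0.23) and Cyp46a1 (0.24). For Egr1 the nearest, Cdon (0.34), Klf10 (0.34) and Ccdc15 (0.35), lay further off by this measure. Egr1 in IFN-β replicate 3 at 2 h was at -2.34 from the vehicle mean, where the other 2 h IFN-β libraries were at -0.59 to -0.68. That library weighs on the distance, and its share in it was not tested.

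Further genes of the system were taken from 5 lists and read from the same fits. Of the AP-1 and bZIP partners outside the members, 9 of 22 tested rose at 2 h and 0 fell (5.25% and 2.01% of all genes), with a median log2 fold change of 0.50 beside -0.02 over all genes tested. At an unadjusted p under 0.05 in edgeR it was 12 higher and 0 lower, beside 1202 and 898 of all 12104 genes. DESeq2 called 11 higher and 0 lower, beside 781 and 378 of those genes. The block gave 13 higher and 1 lower, beside 15.9% and 13.4%. Dropping IFN-β replicate 2, 5 or 6 left 6, 5 and 6 of 19 higher, beside 437, 398 and 424 of all genes tested. Nfil3, a bZIP repressor, rose by 2.03 (standard error 0.12, adjusted p = 7.46e-06 in edgeR), Cebpb by 1.38 and Crem by 1.01. Batf2, singled out after its values were seen, was absent from the 2 h vehicle libraries (0 counts in each) and had 12 to 21 counts per IFN-β library. Taking 3 counts for the vehicle group as the limit, it was at least 24.8-fold higher. Batf2 met the filter on counts only through the IFN-β libraries, so no p-value is given for it. Batf2 is nonetheless among the 9 partners counted as risen. Other partners also left the test when 1 IFN-β library was dropped, with 19 tested without replicate 2, 5 or 6 and 20 without replicate 3. The count of 9 and the median may therefore rest in part on genes tested only through IFN-β libraries. With a mean of at least 50 counts 5 of 16 partners were higher and 0 lower (median 0.41), beside 508 and 207 of 10232 genes. The median of the list is the same with Batf2 at that bound. Cebpb, Crem, Irf1, Csrnp1, Zfp36, Atf5, Jdp2 and Hspd1 have an annotated gene on the opposite strand. How far those genes overlap their coding sequences was not measured, so reads of the opposite gene may be part of their values.

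At 14 h 7 of 19 such partners were higher and 1 lower, where 26.2% and 26.3% of all genes were (median 0.25 beside 0.00 over all genes). Cebpb (0.88), Atf5 (0.64) and Jdp2 (0.46), a repressor of AP-1, led upwards, and Creb1 (-0.21) was the gene that fell. Between the times, 7 of 22 partners had a lower and 2 a higher response at 14 h (15.5% and 15.4% of all genes), among them Nfil3 at -2.33 and Crem at -0.74, the same direction as Fosl2, Jun and Atf3.

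Of the other immediate early transcription factors, 6 of 23 were higher at 2 h and 3 lower (median -0.18), and with the block 8 were higher and 10 lower, beside 5.25% and 2.01% of all genes (15.9% and 13.4% with the block). Nfil3 and Cebpb, among the 6, also stand in the list of AP-1 and bZIP partners. Irf1, an interferon target, rose by 3.59 and Csrnp1 by 3.55, whereas the Egr1 relatives Egr4 and Egr2 fell by 1.44 and 1.09. Egr3 had -0.98 (adjusted p = 0.143 in edgeR, and 0.00272 with the block). Without the pair numbered 3 the Egr3 value was -0.82 (adjusted p = 0.101 in edgeR). Of the Nr4a1 relatives, Nr4a3 had -0.79 (adjusted p = 0.191 in edgeR, and 0.00369 with the block) and Nr4a2 0.26 (adjusted p = 0.821 in edgeR). Egr3, Nr4a3 and Nr4a2 were named after their values were seen, as the closest relatives of 2 members.

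At 14 h 7 of 23 in that list were higher and 5 lower (median -0.06), shares near the 26.2% and 26.3% of all genes. Egr2 fell by 1.51, Egr3 by 1.78 and Myc by 0.52, while Irf1 (2.77) and Csrnp1 (1.61) stayed higher with IFN-β. Egr4, which fell at 2 h, had -0.53 at 14 h (adjusted p = 0.0563 in edgeR). Each call among Egr2, Egr3 and Egr4 was thus towards lower footprints, as for Egr1 at 14 h.

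**Figure D4:**
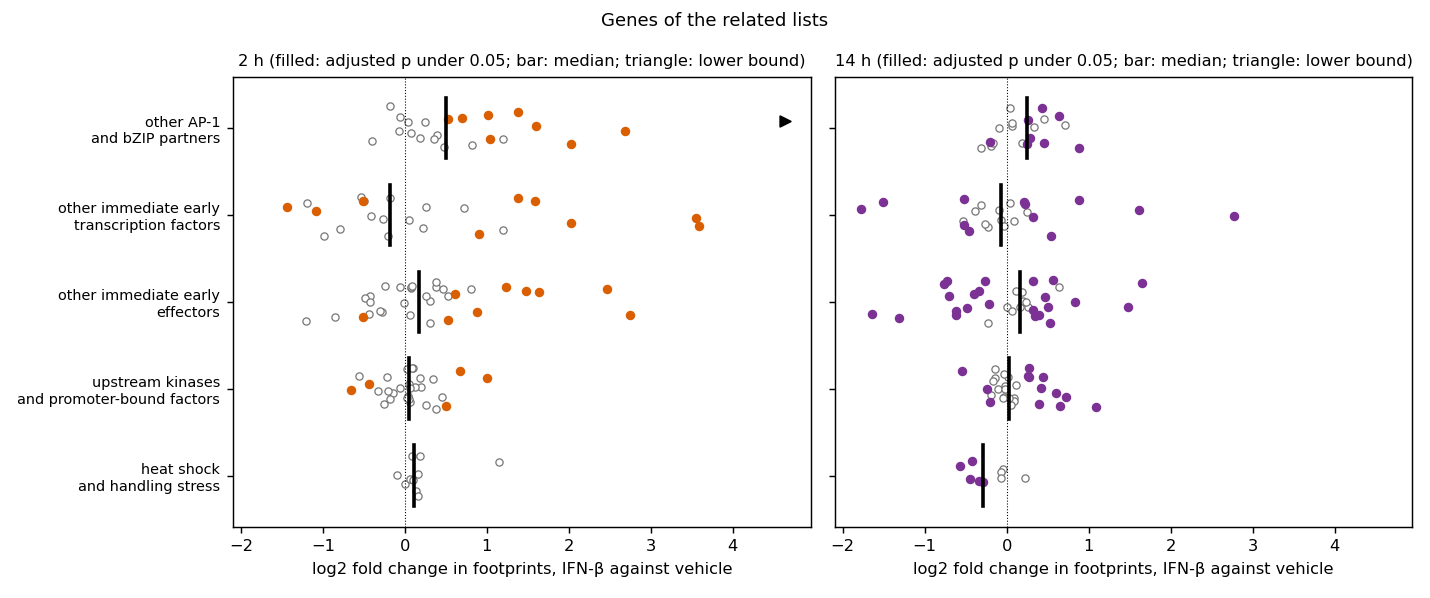
Log2 fold change in footprints, IFN-β over vehicle (x axis), of each tested gene in 5 lists of related genes at 2 h and 14 h. Filled points passed an adjusted p of 0.05 in edgeR, black bars are list medians and the triangle is the lower bound of Batf2 (4.63). The AP-1 and bZIP partners have the highest median at 2 h, 0.50.

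Immediate early genes that are not transcription factors, such as cytoskeletal, RNA-binding and phosphatase genes, gave 8 of 32 higher and 1 lower at 2 h (15 and 8 with the block), beside 5.25% and 2.01% of all genes (15.9% and 13.4% with the block). Gadd45g, a growth arrest gene, rose by 2.75, Zfp36, which speeds decay of AU-rich mRNAs, by 2.46, and the kinase gene Sgk1 by 1.64. At 14 h 11 of 33 were higher and 12 lower, beside 26.2% and 26.3% of all genes, with Gadd45g at 1.65 and Arc, an activity-regulated gene of neurons, at -1.31. Kinases and promoter-bound factors upstream of the members gave 3 of 29 higher and 2 lower at 2 h (7 and 7 with the block), against the same shares of all genes at 2 h, with the MAP kinase kinase genes Map2k3 at 1.00 and Map2k6 at -0.66. At 14 h it was 10 of 29 higher and 3 lower (11 and 7 with the block), where 26.2% and 26.3% of all genes were (31.8% and 31.0% with the block), led by Mapk10 (JNK3) at 1.09.

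Members of the immediate early class also respond to dissociation and warming of cells, so heat shock genes were read beside them. Of 10 heat shock genes 0 were called at 2 h by edgeR and 0 by DESeq2. At an unadjusted p under 0.05 in edgeR 1 was higher, beside 1202 of all 12104 genes. With the block 3 were higher, beside 15.9% of all genes. Without the pair numbered 3 it was 1, beside 1033 of 11892 genes. They had a median log2 fold change of 0.11, and their summed level was 4708 to 7045 CPM with vehicle and 5216 to 7293 CPM with IFN-β. At 14 h 5 of 9 fell, beside 26.3% of all genes, with a median of -0.29, among them Hspd1 (-0.56) and Hspa8 (-0.43). Their part in the members' changes was not tested.

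The total RNA of the same cultures held few reads on the members. Of 160 values (10 genes in 16 libraries) 118 were under 10 counts, and apart from Jund none exceeded 44. This was general, since protein-coding genes averaging 500 or more footprints had a median of 13.4 total RNA counts where no gene lay on the opposite strand and of 29.8 where one did. The strand setting of the total RNA counting was not given in the sources used here, so it is not known whether these counts are reads of the members' own mRNA. Atf3 at 2 h had 1, 0, 0 and 0 total RNA counts with vehicle and 8, 7, 6 and 4 with IFN-β (replicates 2, 3, 5 and 6). Fosl2 had 3, 6, 1 and 1 with vehicle and 24, 5, 14 and 14 with IFN-β, which overlap. With these counts a change in ribosome load cannot be separated from a change in mRNA amount for the members, and translation efficiency was not computed.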

How the data were processed

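Ribosome footprints (26 to 34 nt) and total RNA of cultured vSVZ NSCs were sequenced by the authors. Reads were trimmed (Trim Galore 0.4.4) and aligned with Bowtie 0.12.7 to the mouse mm10 transcriptome, duplicates were removed, and the authors deposited raw read counts per gene, summed over overlaps with annotated features. The strand setting was not given in the sources used here. The 14 h time point is given as such in the labels and as a longer time in places of the methods. Removing duplicates can lower the counts of genes with many reads over few positions.

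Groups were taken from the labels. The 10 members and the lists of related genes were chosen with earlier results of these data known. Genes that reached 10 counts in 4 or more libraries were tested with edgeR 4.0.16 (R 4.3.3; TMM, quasi-likelihood, two-sided), vehicle against IFN-β within each time and as an interaction over both, with Benjamini-Hochberg adjustment over all genes tested and a threshold of 0.05. Standard errors are the log2 fold change divided by the root of F. CPM were scaled by TMM over the 16 footprint libraries. Differences within pairs used a pseudocount of 0.5 CPM. Genes named from the lists are, per list and comparison, drawn from the top 3 called in each direction, by fold change, that average 50 counts or more. Others are marked as named later. Alternatives were DESeq2 1.42.0, limma-voom (limma 3.58.1), total counts as library sizes, no filter or a mean of at least 50 counts, each library left out, and the replicate number as a block. Leaving out the 2 h pair numbered 3 was chosen after seeing the data. The fits across genes were tested on simulated data.

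Replicate numbers come from the labels. Deviations from group means correlated at 0.345 to 0.821 between same-numbered 2 h libraries (other pairs -0.642 to 0.336) and at 0.203 to 0.435 at 14 h (others -0.394 to 0.116), so the numbers were taken to pair the cultures. Footprint libraries held 2956297 to 10505108 counts and total RNA libraries 1370008 to 7877753. Footprint counts of replicates differed by more than sampling noise in every pair (chi-square per degree of freedom at least 2.51). Levels per kb used the union of coding exons in GENCODE M21 (GRCm38), and promoter windows came from a RefSeq table of GRCm38.p6. A check of interferon target genes is not reported here.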

Additional observations from a re-analysis of the deposited data

Results flagged for a closer look

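Among the 40 groups of 4 libraries that were looked at (10 members in 4 groups), 3 had a library far from the others by Dixon's criterion, and chance alone gives about 1 such case in 20 groups. Egr1 in IFN-β replicate 3 at 2 h had 61.1 CPM (300 counts), where the next lowest library had 194 CPM. Ier2 in IFN-β replicate 4 at 14 h had 20.6 CPM, where the next highest had 15.9 CPM. Fosb in vehicle replicate 4 at 14 h had 0.0947 CPM, which is 1 count.

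The response to IFN-β differed between the times by the test of the difference itself for 5 members. The difference, 14 h minus 2 h on the log2 scale, was -1.84 for Fosl2, -1.91 for Atf3, -1.12 for Jun, -0.76 for Ier2 and 0.65 for Jund.

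Total RNA entered no test. Atf3 had 25 total RNA counts summed over the 4 IFN-β libraries at 2 h and 1 over the 4 vehicle libraries. The strand setting of that counting is not known, so it is not known whether these are reads of Atf3 mRNA.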

How the results depend on the processing

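Of 474 alternative values of member fold changes, 418 kept direction and side of the threshold, 18 kept direction but lost the call, 20 gained it and 18 changed sign. The sign changed for Fos at 2 h and for the time difference of Egr1, both near 0. Fos at 2 h was 0.074 by limma-voom, 0.0219 with the replicate block, 0.27 without the 2 h pair numbered 3 and 0.27 with the replicate block and that pair left out, and -0.29 to 0.48 with single libraries left out. The Egr1 time difference was 0.0072 with total counts alone, 0.0044 with a mean of at least 50 counts, 0.10 by limma-voom and 0.017 with the replicate block, and -0.28 to 0.11 with single libraries left out. The cause was not tested.

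Genes called at 2 h numbered 878, against 3538 with the replicate block, 1671 without the pair numbered 3, 3168 with both, and 517 to 953 with single libraries left out (563, 517 and 575 without IFN-β replicates 2, 5 and 6). Members called at 2 h were 5, 8 with the replicate block, and 8 with the replicate block and the pair numbered 3 left out, where Fos was called and Ier2 was not. For the time difference the replicate block gave 6944 genes in place of 3867, and 8 members in place of 5. The block changed no call of a member other than those given beside the results. The 20 vehicle levels per kb were the same with the longest coding sequence. For each member it is as long as the union of coding exons, so this alternative could not change them. Fosb and Atf3 at 14 h are limited by their low counts. Total RNA counts of the members were low too, and their strand setting is not known. No alternative with a mean of at least 50 counts was possible for members below that mean.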
